A study of Drosophila melanogaster with 12 samples.

Results

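The vacuolar ATPase and the Rab GTPases were described here through the 3′ ends of their transcripts in adult Drosophila heads. A gene was counted as a member when its symbol in the Ensembl fly annotation began with Vha, or was Rab or RabX followed by a digit, and when at least 1 cluster of read ends in the deposited table named it. By this rule 46 genes were members, 20 of them Vha and 26 Rab, of 9576 gene identifiers named in all. They were named by 209 of 31435 cluster positions and held 0.378% of the pooled reads. Of all protein-coding genes in the annotation, 64.4% were named by a cluster, against 60.6% of the 33 Vha genes and 78.8% of the 33 Rab genes. Rab3-GEF, Rab3-GAP and Rab3GAP1, 3 regulators whose symbols also begin with Rab and a digit, are not GTPases and were kept apart.

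The study measured RNA bound by Pumilio (Pum), an RNA-binding protein that recognises a short element in 3′ UTRs and represses many of the mRNAs it binds. Head powder of adult flies, males and females in equal amounts, was cross-linked with UV light, and Pum was purified with an anti-Flag antibody (xRIP). The 12 libraries form 4 groups of 3, labelled pum input, pum IP, w118 input and w118 IP. The pum flies carry a Flag-HA tag at the C-terminus of the endogenous Pum protein, made by genome editing, and the w118 flies (w1118 in the study's text) are the untagged control. All groups share the tissue, the growth temperature and the library kit, a 3′-end protocol in which sequencing starts at the poly(A) tail. The exact age of the adults was not given in the sources used here.

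The 12 count columns of the deposited table carry 1 shared heading and no library name, so each value below is the sum over all 12. Input and IP libraries of both genotypes are mixed in these sums. No comparison of IP with input, no depth of a single library and no spread between replicates can be given from them, and every value is a description without a test. The head label was checked against markers, and those of neurons, glia and photoreceptors had reads (nSyb 53650, Gs2 62997 and ninaE 465493 pooled reads). Yp1, a yolk protein gene of female fat body, had 481444, while the 3 testis markers bam, Mst98Ca and dj were named by no cluster.

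As background, the V-ATPase is a rotary proton pump that acidifies lysosomes, endosomes and synaptic vesicles. Its cytosolic V1 sector hydrolyses ATP and turns a central stalk, and its membrane-embedded V0 sector carries protons through a ring of proteolipid subunits. In neurons the proton gradient that it builds drives the loading of neurotransmitter into synaptic vesicles. Rab proteins are small GTPases that switch between a GTP-bound and a GDP-bound state, and each marks a particular membrane of the secretory or endocytic route. Exchange factors switch them on and GTPase-activating proteins switch them off, and effectors bind the active form to tether and move vesicles.

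Genes of the pump were read more than most genes, and the Rab genes less so. The median was 12632 pooled reads per Vha gene, 2988.5 per Rab gene and 1807 per protein-coding gene. These are counts of read ends, not divided by transcript length, and they include read ends inside transcripts, described with the positions of the reads. At or above the median of all named genes lay 18 of the 20 Vha genes and 15 of the 26 Rab genes. Above the upper quartile of all genes lay 15 Vha and 9 Rab genes. The 2 families overlapped throughout the range from 167 to 35585 reads, and only Vha16-1 and Vha13 lay above the highest Rab gene.

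**Figure D1:**
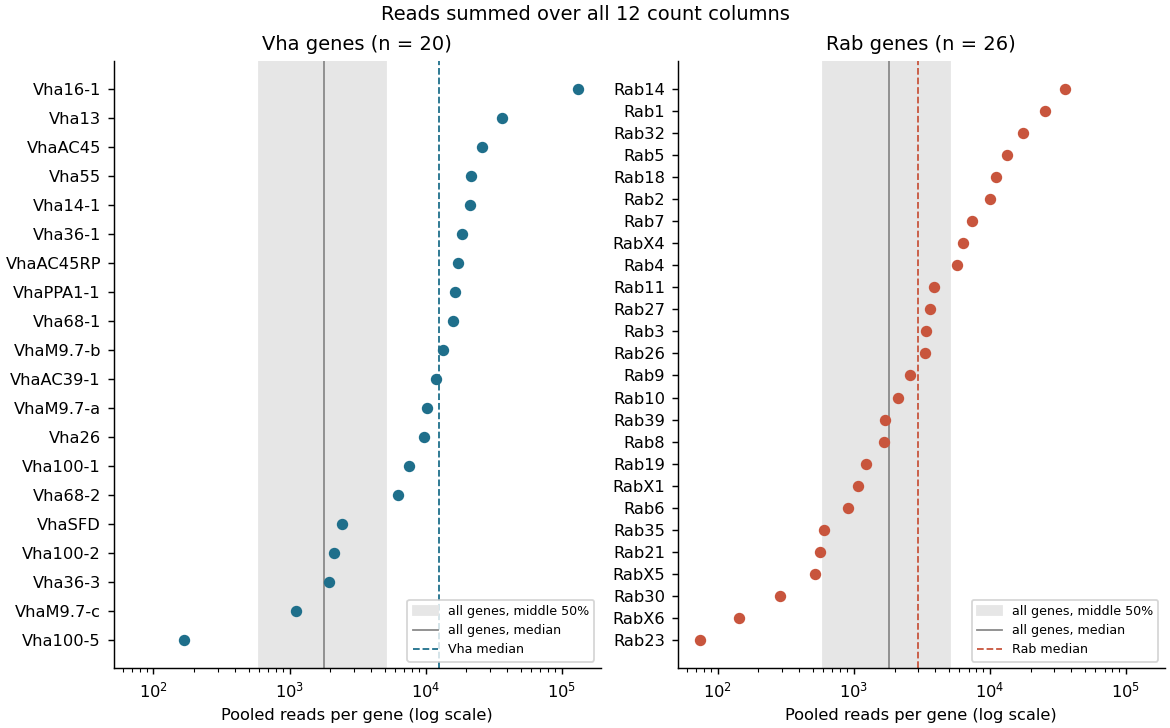
Pooled reads per gene on a log axis, 1 point per member, for the 20 Vha genes (left) and the 26 Rab genes (right). The grey band and line give the middle 50% and the median (1807) of all named protein-coding genes, and the dashed lines give the family medians of 12632 and 2988.5.

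Among the V1 genes, Vha13, the G subunit of the peripheral stalk, had the most reads (36514). Vha55, the B subunit that alternates with the catalytic A subunit in the head of the pump, had 21647 reads. Vha14-1, the F subunit of the central shaft, had 21364. Vha36-1, the D subunit of the same shaft, had 18473. Vha13 thus stood apart from the other 3, which lay close together. Subunit A was split between Vha68-1 with 16028 reads and Vha68-2 with 6326, so that Vha68-1 held 71.7% of the reads of that subunit (exact 95% interval 71.1 to 72.3). Vha26, the E subunit of the peripheral stalk, had 9722 reads, and VhaSFD, the regulatory H subunit, had 2442.

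The V0 genes spanned the widest range of all classes, from 167 to 132977 reads. Vha16-1, the proteolipid subunit c of the rotating ring (2R:6625242-6633090, minus strand), alone held 35.6% of the reads of the Vha genes and ranked 126 of the 9008 named protein-coding genes. VhaPPA1-1, the related proteolipid c'', had 16496 reads. VhaM9.7-b, one of the small e subunits, had 13411 and its paralog VhaM9.7-a 10220, while VhaM9.7-c had 1114. VhaAC39-1, subunit d, which joins the ring to the shaft, had 11853. Of the large a subunits, Vha100-1, the form known for its role in photoreceptor synapses, had 7581 reads, Vha100-2 had 2132 and Vha100-5 had 167. Vha100-1 thus held 76.7% of the reads of subunit a (exact 95% interval 75.9 to 77.6). The accessory gene VhaAC45 had 25856 reads and its relative VhaAC45RP 17298.

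Several genes are annotated for 8 subunits, and their reads were unevenly divided. Vha36-1 held 90.5% of subunit D (90.1 to 90.9), the rest being Vha36-3 with 1942 reads, and VhaM9.7-b held 54.2% of subunit e (53.6 to 54.8), the lowest share of a leading gene. For subunits F, c, c'' and d only 1 gene was named at all. These intervals cover counting error only, and reads without molecular identifiers are not independent molecules. The last 50 bases before the most-read end occurred once in the genome for all 46 members, so these shares do not rest on ends with an identical copy elsewhere.

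No cluster named 13 annotated Vha genes, namely Vha14-2, Vha16-2, Vha16-3, Vha16-4, Vha16-5, Vha36-2, Vha44, Vha68-3, Vha100-3, Vha100-4, VhaAC39-2, VhaM9.7-d and VhaPPA1-2. No level can be given for a gene that no cluster named. Vha44, subunit C, was filed under an older identifier, FBgn0262511, which the study's supplementary material pairs with that symbol. Its 9 clusters, all in the Vha44 locus (2R:16324813-16336637, minus strand), held 25415 reads, and 3 Vha genes had more. It is not among the 20 members and its values are given apart.

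Among the Rab genes that act in endosomes, Rab14, of endosomes and phagosomes, had the most reads of the whole family (35585, or 22.1% of its reads). Rab5, which marks early endosomes, had 13462 and Rab7, which marks late endosomes and lysosomes, had 7467. Recycling was represented by Rab4 with 5766 reads and Rab11 with 3915. Rab9, of the route from late endosomes to the Golgi, had 2612, Rab35 had 606 and Rab21 had 564. The 8 endosomal genes had a median of 4840.5 reads, which was more than the 1905 of the 6 secretory genes, and the 2 ranges overlapped.

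The secretory genes were led by Rab1, which acts between endoplasmic reticulum and Golgi, with 25568 reads (3R:21266029-21269060, minus strand). Rab2, which acts at the Golgi, had 10002. Rab10 had 2135, Rab8 1675, Rab6 909 and Rab30 286. The 3 genes of regulated secretion and synaptic vesicles lay close together, with 3649 reads for Rab27, 3402 for Rab3, the synaptic vesicle Rab, and 3365 for Rab26. Rab32, known for lysosome-related organelles such as the pigment granules of the eye, had 17677 reads. Rab18, known from mammals for lipid droplets and endoplasmic reticulum, had 11083, and RabX4 had 6416. Rab23 had the fewest, 74, and is the only member under 100. The Rab genes that no cluster named were Rab40, Rab9D, Rab9Db, Rab9E, Rab9Fa, Rab9Fb and RabX2.

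Most reads of both families ended where the annotation places a transcript end. A read end counts as annotated here when the last base of its cluster lies within 50 bases of an annotated transcript end of the gene. At such ends lay 82.2% of the Vha reads, 78.9% of the Rab reads and 85.0% of the reads of all protein-coding genes. Elsewhere in the 3′ UTR lay 16.0% of the Vha reads and 11.3% of the Rab reads, against 9.43% for all genes. The Rab genes had 4.7% of their reads in 5′ UTRs and 2.56% in coding sequence, and the Vha genes 0.491% and 0.952%. Over all genes these shares were 3.4% and 1.09%. Of the Rab reads in 5′ UTRs, 3585 lay in RabX4 clusters that also named another gene, Kaz. Introns held no cluster of either family, and only 0.0768% of the reads of all protein-coding genes.

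**Figure D2:**
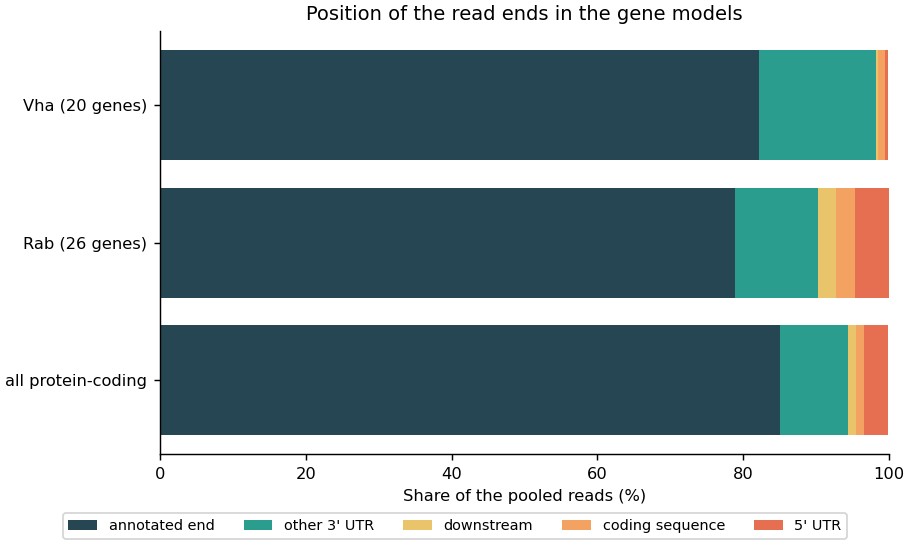
Share of the pooled reads (%) by the position of the read end in the gene models, for the Vha genes, the Rab genes and all named protein-coding genes. Annotated ends hold 82.2%, 78.9% and 85.0% of the reads, and the 5′ UTR share is 0.491% for Vha, 4.7% for Rab and 3.4% for all genes. The Rab share in 5′ UTRs includes 3585 reads in RabX4 clusters that also name another gene, Kaz.

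A few genes held most of these reads. Of the Vha reads in 3′ UTRs away from annotated ends, 26686 belonged to Vha16-1, at several positions spread over its long 3′ UTR, and 12807 to VhaAC45RP. The 2 largest of the Vha16-1 positions, with 12630 and 11738 reads, were both followed by an A-rich stretch of genomic sequence, defined as 6 A in a row directly after the end or at least 7 A among the next 10 bases. The oligo(dT) primer can anneal to such stretches, and their part in these read ends was not tested. All 3556 Vha reads in coding sequence belonged to Vha26, which had 36.6% of its reads there. Among the Rab genes the 4121 reads in coding sequence all belonged to Rab32. In 5′ UTRs RabX4 had 3585 reads, Rab11 1543 and Rab26 1085. The 3 RabX4 clusters there also named Kaz, a gene that overlaps it on the same strand, and lay within 50 bases of the annotated end of Kaz, so their reads cannot be told apart between the 2 genes. The other RabX4 reads were 2757 at its annotated end and 74 downstream of it.

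Under 50% of the reads lay at annotated ends in 2 of 20 Vha genes, VhaAC45RP and VhaSFD, and in 3 of 26 Rab genes, Rab2, Rab6 and RabX4. The share was 15.5% among all named protein-coding genes, against 10.0% and 11.5%. Of the 6416 RabX4 reads, 3585 lay in the clusters that also named Kaz and 2757 at the annotated end of RabX4. VhaAC45RP had 64.2% of its reads at an end 51 genomic bases after its most distal stop codon, and 4491 of its 17298 reads at its annotated end, 297 bases after the stop codon. In Rab2 a single cluster 486 bases after the stop codon held 6488 reads, or 64.9%, while its 2 annotated ends held 658 and 1349. Rab6 had 57.6% of its reads 236 bases after the stop codon and 23.5% at the annotated end at 957 bases. VhaSFD had 3 ends of nearly equal size, with 828, 766 and 745 reads. Of the 766, 235 lay within 50 bases of the annotated end.

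**Figure D3:**
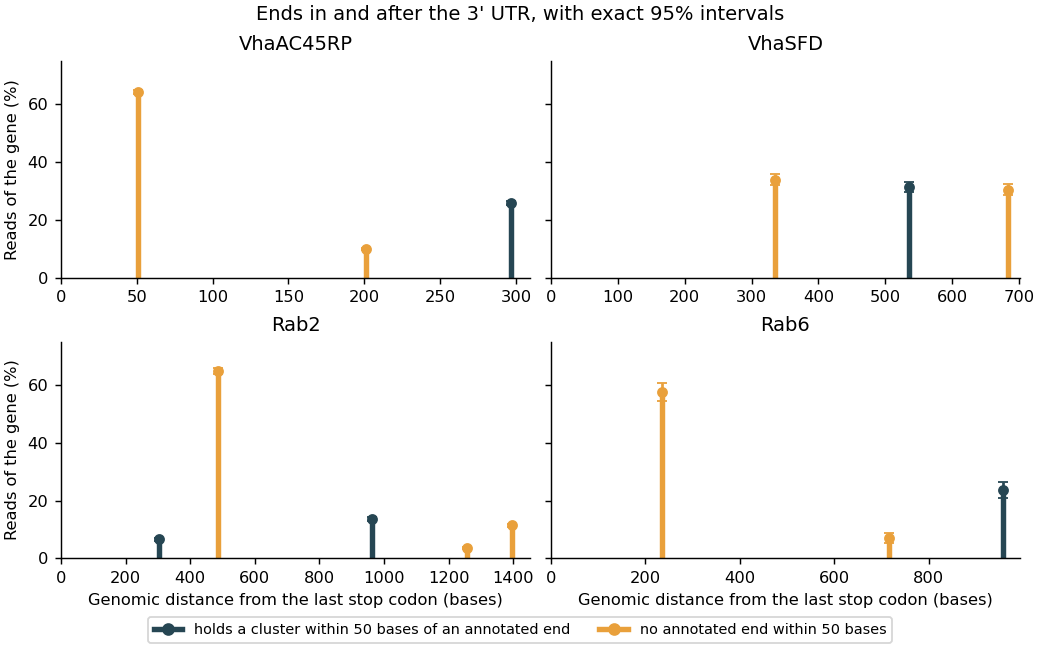
Reads at each end in and after the 3′ UTR, as % of the reads of the gene with exact 95% intervals, against the genomic distance in bases from the most distal stop codon, for VhaAC45RP, VhaSFD, Rab2 and Rab6. In each gene the tallest end (VhaAC45RP 64.2%, VhaSFD 33.9%, Rab2 64.9% and Rab6 57.6%) is not near an annotated end.

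Alternative ends were the second subject, since the study asked whether Pum prefers longer isoforms. A supported end was a group of clusters within 50 bases of an annotated end, with clusters up to 50 bases apart joined. Every member had at least 1, as did 8110 of the 9008 named protein-coding genes. At least 2 supported ends were found in 16.4% of the 8110 protein-coding genes with any. They were found in 6 of 20 Vha genes (30.0%) and in 8 of 26 Rab genes (30.8%). Such genes were more common among those with more reads. Among genes at or above the median of reads, the share was 24.7% for all genes and 33.3% for each family. No member had more than 2, and over all genes 1129 of the 1330 with 2 or more had exactly 2.

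Among the 8 Rab genes the less-read end held at least 25% of the reads in 6, and among the 6 Vha genes in none. Vha44, kept apart for its identifier, had 6750 and 9624 reads at its 2 supported ends and would pass this limit. Over all 1129 genes with exactly 2 supported ends the share was 44.3%. This limit of 25% was chosen after the values had been seen. Among supported ends, the most distal was the most-read one in 2 of 6 Vha genes and 5 of 8 Rab genes. Over all genes with 2 or more supported ends the share was 43.6%. The median distance between the ends was 224 bases in Vha genes, 494.5 in Rab genes and 655.5 in all such genes. Rab2, 1 of those 5 Rab genes, had more reads (6488) at an end near no annotated end.

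**Figure D4:**
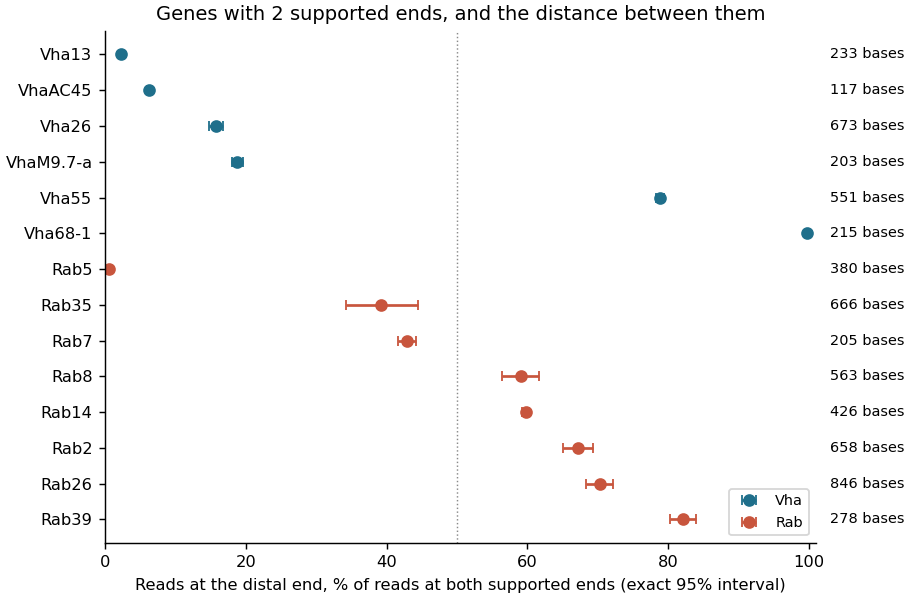
Reads at the distal end as % of the reads at both supported ends, with exact 95% intervals (counting error only), for the 6 Vha and 8 Rab genes with 2 supported ends. The distance between the ends in bases stands at the right. Of the Vha genes 4 lie under 20% and 2 above 75%, and 6 of the 8 Rab genes lie between 39.2% and 70.3%.

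At its 2 supported ends Vha13 had 31016 proximal and 729 distal reads, 233 bases apart (2.30% distal, exact 95% interval 2.13 to 2.47). A further 4769 Vha13 reads (13.1% of the gene) lay elsewhere in the 3′ UTR, before both sites. VhaAC45 had 24143 and 1615 reads at 2 ends 117 bases apart (6.27% distal). Vha26 had 4382 and 815 (15.7% distal), and VhaM9.7-a had 7661 and 1773 (18.8% distal). Of the reads at supported ends, these 4 genes thus had over 80% at the shorter form. Vha55 was the reverse, with 3969 proximal and 14777 distal reads (78.8% distal, 78.2 to 79.4). Vha68-1 had 42 proximal and 13710 distal reads (99.7% distal), but further clusters just outside the 50-base limit brought the reads around its proximal site to 1921.

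In the Rab family Rab14 had 14317 proximal and 21268 distal reads, 426 bases apart (59.8% distal, 59.3 to 60.3). Rab7 had 3119 and 2343 (42.9% distal) and Rab8 had 583 and 841 (59.1% distal). In these 3 genes neither end held more than 59.8% of the reads. Rab35 had few reads, 220 and 142 (39.2% distal), and a wide interval of 34.2 to 44.5. Rab2 had 658 and 1349 (67.2% distal), Rab26 678 and 1602 (70.3%) and Rab39 304 and 1399 (82.1%). Rab5 was the exception, with 11122 proximal and 55 distal reads (0.492% distal). All these shares leave out ends near no annotated end. At such ends Rab5 had 1245 reads between its 2 sites and 68 beyond them. Rab7 had 1249 reads at such an end, 100 bases beyond its distal annotated end.

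An A-rich stretch followed the proximal end in 4 of the 8 Rab genes, Rab5, Rab14, Rab26 and Rab35, and in 1 of the 6 Vha genes, Vha55. It followed the distal end in no Rab gene and in 1 Vha gene, VhaM9.7-a. Over all genes with 2 or more supported ends it followed 43.7% of the proximal and 14.6% of the distal ends. In Rab5 and Rab14 all 10 bases after the proximal end were A. The authors exempted ends within 25 bases of an annotated end from their filter on such stretches, and their part in the counts of proximal reads was not tested.

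The poly(A) signal, the hexamer that directs cleavage some way downstream, was searched as AATAAA or ATTAAA on the strand of the gene, starting 10 to 40 bases before the end. It preceded the most-read supported end in 69.3% of all genes with one, in 15 of 20 Vha genes and in 19 of 26 Rab genes (73.1%). AATAAA accounted for 12 of the 20 Vha and 18 of the 26 Rab genes, and for 4764 of the 8110 protein-coding genes with a supported end. Weaker hexamers were searched where both were absent. AATATA preceded the most-read supported end of Rab35, Rab39, RabX4 and VhaM9.7-c, AATACA that of Vha13, Vha36-3 and Rab26, and CATAAA that of Rab11 and Rab18. The most-read supported end of Rab5 followed AATGAA and that of Vha100-1 followed AATAGA. The other weaker forms searched, TATAAA beside GATAAA, as well as AAGAAA beside ACTAAA, stood before no further member's most-read supported end. With all 11 hexamers 45 of the 46 members had one at that end, against 87.5% of all genes, and the exception was the annotated end of VhaAC45RP. In VhaAC45RP, VhaSFD, Rab2 and Rab6 an unannotated end had more reads than any supported end. Neither AATAAA nor ATTAAA preceded it in these 4 genes, while AATATA did in VhaAC45RP and Rab2, AATACA in VhaSFD and ACTAAA in Rab6. In genes with 2 supported ends, AATAAA or ATTAAA preceded the proximal end in 3 of 6 Vha and 2 of 8 Rab genes, and the distal end in 4 of 6 and 5 of 8. Over all such genes these shares were 41.7% and 77.4%.

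The ends of 3 genes are printed because they differ in how the reads were divided, as 30 bases from the reference genome (dm6), 5′ to 3′, with the hexamer in capitals. Vha13 and Vha55 are on chromosome 3R and end mainly at opposite sites, and Rab7, also on 3R, uses both.
Vha13 proximal end, 31016 reads, chr3R:19643255-19643284, minus strand: gcccAATACAcgttgttgttttatccgaaa
Vha13 distal end, 729 reads, chr3R:19643017-19643046, minus strand: ataaAATAAAatgtacaatgtaaagcaatt
Vha55 proximal end, 3969 reads, chr3R:12624305-12624334, minus strand: ttcgCATAAAgaatcgtagcattccaacaa
Vha55 distal end, 14777 reads, chr3R:12623765-12623794, minus strand: gatgAATAAActacacaccaaatcatgtta
Rab7 proximal end, 3119 reads, chr3R:23995224-23995253, plus strand: atttAATAAAagaataactttttaaatgta
Rab7 distal end, 2343 reads, chr3R:23995427-23995456, plus strand: tggtAATACAtatatgtaaattgtgtatat
In Vha13 most reads ended after the weaker hexamer AATACA and few after AATAAA. In Vha55 and Rab7 more reads ended after AATAAA than after the weaker form.

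The 3′ UTRs of both families were longer than those of most genes. The 3′ UTR up to the most distal supported end had a median of 493 bases in Vha genes, 641.5 in Rab genes and 254 in all 8100 genes with one. Among genes at or above the median of reads these values were 494, 702 and 294. The longest were those of Rab3 (2475 bases), Vha16-1 (2228) and Vha26 (2002), and the shortest those of RabX5 (64), Rab18 (88) and Rab27 (93). Within the pump, V1 genes had a median of 538 bases and V0 genes 393. The 6 secretory Rab genes were all at 919 bases or more, with a median of 946.5, whereas the endosomal genes ran from 237 to 1265. These lengths follow annotated ends. Most reads of Rab2 (64.9%) and Rab6 (57.6%) ended nearer the stop codon, 486 and 236 genomic bases after it.

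The Pumilio response element was searched as TGTANATA (U in place of T in the RNA, N being any base) on the strand of the gene in these 3′ UTRs. It occurred in 21.8% of the 8100 genes, in 6 of 20 Vha genes (30.0%) and in 7 of 26 Rab genes (26.9%). On the opposite strand of the same 3′ UTRs the same letters occurred in 19.3% of all genes, 6 Vha and 8 Rab genes. Per kilobase of 3′ UTR there were 0.645 elements in Vha genes, 0.36 in Rab genes and 0.51 in all genes. In the last 200 bases of 3′ UTRs at least that long, an element occurred in 3 of 17 Vha genes (17.6%), 3 of 23 Rab genes (13.0%) and 11.1% of all. A match is a run of letters and says nothing here of whether Pum was bound, since IP and input reads could not be separated.

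Beside the share of 21.8% over all genes, 4 of the 9 named V0 genes and 2 of the 9 named V1 genes held an element. Vha16-1, the ring subunit, had 2 elements, starting at bases 200 and 1851 of its 3′ UTR. VhaM9.7-a also had 2, VhaAC39-1 and VhaM9.7-c had 1 each, and Vha55 and Vha68-2 held those of V1. Neither accessory gene had one. In the Rab family all 3 genes of regulated secretion and synaptic vesicles, Rab3, Rab26 and Rab27, held 1 element each, as did 3 of the 8 endosomal genes, Rab4, Rab14 and Rab21, and Rab23. None of the 6 secretory genes had one. These classes hold few genes, and no share for 3′ UTRs of like length was computed. Vha44, under its older identifier, had 1 element in a 3′ UTR of 1153 bases.

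**Figure D5:**
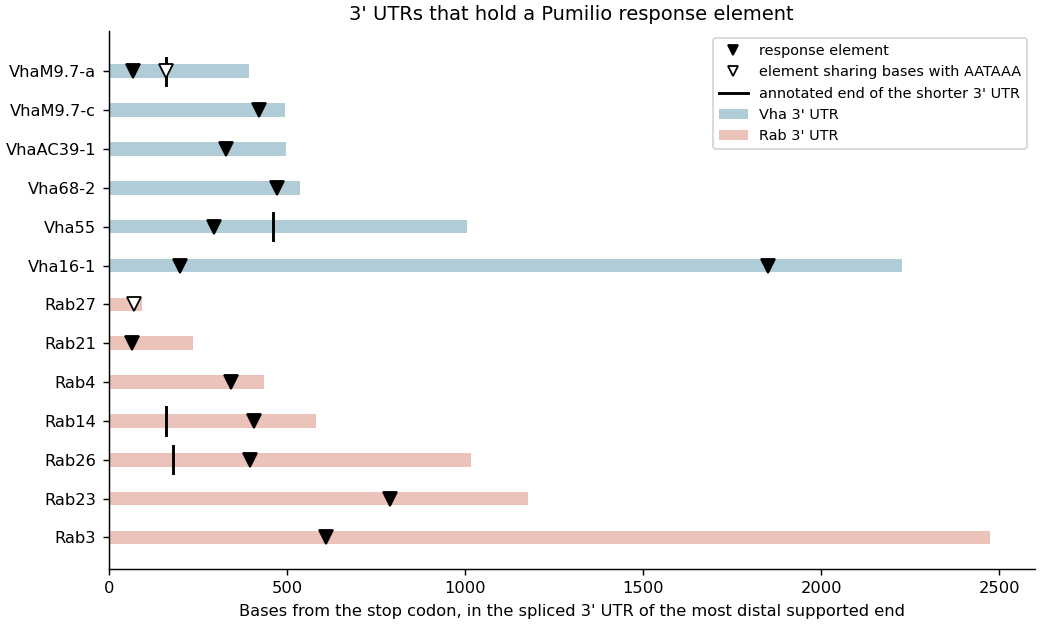
The 13 members with a Pumilio response element, drawn as spliced 3′ UTRs in bases from the stop codon, with each element as a triangle (open where it shares bases with AATAAA). Black bars mark the annotated end of the shorter 3′ UTR in genes with 2 supported ends. In Rab14 and Rab26 the element lies beyond that bar, and in Vha55 before it.

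The elements of the members are shown with 11 bases on each side, in reference sequence (dm6) of the strand of the gene, with the element in capitals. Coordinates are those of the element, which lies in the 3′ UTR in each case. Those of Vha16-1, Rab3 and Rab4 are given by position only.
Vha55, chr3R:12624464-12624471, minus strand: ccgtcttgcaaTGTACATAaattgaattgc
Vha68-2, chr2L:12978542-12978549, plus strand: tgttaaatttaTGTAAATAtttaaagtatg
VhaAC39-1, chrX:3882799-3882806, plus strand: cttcgtgtttgTGTACATAtgtataattat
VhaM9.7-a first element, chr3L:4263138-4263145, plus strand: ttgttttacgtTGTAAATAagaagtaaaaa
VhaM9.7-a second element, chr3L:4263231-4263238, plus strand: ttagattgcctTGTAAATAaaatctatagg
VhaM9.7-c, chr3L:4186084-4186091, minus strand: tttttccgtagTGTAGATAatttactaatc
Rab14, chr2L:14358590-14358597, plus strand: tgatgaatcccTGTATATAatatatatatg
Rab21, chrX:23012305-23012312, minus strand: tgttgatcttgTGTATATAttatacataga
Rab23, chr3R:5680435-5680442, minus strand: tcgaatatgttTGTATATAggggttagctc
Rab26, chr3L:21334406-21334413, plus strand: atatatatataTGTATATAtacatacaaat
Rab27, chrX:1473898-1473905, minus strand: gtgtgtttcgcTGTAAATAaatgttgattg
The Rab26 element directly follows a run of alternating A and T.

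In 2 members the element shares bases with the poly(A) signal of the most-read supported end, as in 0.777% of all genes with a supported end. In Rab27 the element starts 22 bases before the annotated end of a 3′ UTR of 93 bases, and its last 4 letters begin the AATAAA of its only end, at which all 3649 reads lay. In VhaM9.7-a the second element runs into the AATAAA of the proximal end with 7661 reads in the same way. The annotated end of that shorter form lies 29 bases before the position of its reads, and the element starts at base 160 where the shorter annotated 3′ UTR has 162 bases.

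Of the 4 members with both 2 supported ends and an element, 2 carry it only in the longer form. In Rab14 the element starts at base 407 of a 3′ UTR of 581 bases and the proximal end lies at base 162. At the distal end, whose transcripts hold the element, lay 21268 reads, against 14317 at the proximal end. In Rab26 the element starts at base 396 of 1017 and the proximal end lies at base 180, with 1602 distal and 678 proximal reads. The proximal ends of Rab14 and Rab26 were followed by 10 and 9 A among 10 bases. None of the 11 hexamers preceded either of them, and the part of those stretches in the proximal reads was not tested. In Vha55 the element starts at base 296, before the proximal end at base 460, so that both forms carry it. In VhaM9.7-a both elements lie before the position of the proximal reads.

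Other genes of both pathways were taken from a list. For the pump the 3 genes of assembly, Rbcn-3A and Rbcn-3B, relatives of a yeast complex that rejoins V1 with V0, and ATP6AP2, an accessory membrane protein, had 2225, 3611 and 8975 reads. None had an element or a further supported end. Of 20 regulators and effectors of Rab proteins 19 were named, with a median of 2194 reads and a median 3′ UTR of 731.5 bases. Supported ends numbered 2 or more in 6 of the 18 with any, against 16.4% of all genes, and 4 of the 18 held an element, close to the 21.8% of all genes. Gdi, which extracts inactive Rab proteins from membranes, had the most reads of that list (10840), and Rep was named by no cluster.

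Rab3-GEF, the exchange factor of Rab3, had 3598 reads and 2 supported ends 3045 bases apart, with 1693 proximal and 1760 distal reads (exact 95% interval of the distal share 49.3 to 52.7). The proximal end had an annotated 3′ UTR of 56 bases and lay before the most distal stop codon of the gene. Whether the 2 forms share a stop codon was not examined. The 3′ UTR up to the distal end measured 2704 bases and held 2 elements, both beyond the proximal end. The distal end was followed by 9 A among 10 bases and preceded by none of the 11 hexamers, and the part of that stretch in its reads was not tested. Rab3, its substrate, had 3402 reads, 88.2% of them at its 1 supported end, and 1 element at base 610 of its 3′ UTR. The other 2 regulators, Rab3-GAP with 362 reads and Rab3GAP1 with 476, had 1 supported end each and no element.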

How the data were processed

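Adult fly heads were sequenced at transcript 3′ ends in 12 libraries. The authors trimmed reads with fastp, mapped them with STAR (version 2.6.1b) to dm6 with Ensembl release 93, and discarded ends before A-rich stretches. The authors merged peaks into clusters and counted reads per cluster, and the deposited values are these raw counts. The 12 count columns name no library and were used only as their sum. Of 32302 entries, 704 positions were repeated with equal counts and were kept once. Positions, which the table counts from 0, are given counted from 1.

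Clusters were compared with Ensembl release 115 and the same assembly in Python 3.11.15 (pandas 2.3.3, scipy 1.17.1). End grouping and motif searches were tested on simulated data. Read shares have exact Clopper-Pearson 95% intervals. The genes named are the 10 most-read members of each family, all with 2 supported ends or an element, unnamed members and paralog extremes. Genes singled out for their read positions were chosen after their values were seen. The members, lists and limits were chosen with earlier results of these data known. Alternatives covered distances, low ends, shared clusters, motifs and the reading of the Rab rule.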

Additional observations from a re-analysis of the deposited data

How the results depend on the processing

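Of 48 alternative values, 33 were equal to the reported value or, for counts, within 1.5 times of it, and 15 moved. When all ends in the 3′ UTR or downstream with at least 5% of the reads were counted, 14 Vha and 14 Rab genes had 2 or more ends, against 6 and 8. This looser count was not made over all genes, so no background share stands beside it. With ends under 5% left out, 1 Vha gene in place of 2 was read most at its distal end. Median reads were 9460 (Vha) and 2143.5 (Rab) near annotated ends only, and 2721.5 (Rab) from clusters naming 1 gene. The median 3′ UTR was 477 (Vha) and 555.5 (Rab) up to the most-read end, and 575.5 (Rab) with 25 bases as the limit. In the last 200 bases 3 Vha and 4 Rab genes held an element, and with the first 6 letters alone (TGTANA) 17 and 22 did (85.0% and 84.6%). Those 6 letters occurred in 57.6% of the 8100 genes with a 3′ UTR. Counting Vha44, an alternative added after seeing the data, gave 13411 reads and 496 bases as the Vha medians. The 4 Rab genes in the last 200 bases include 3′ UTRs shorter than that. No paired analysis was possible because the count columns carry no replicate number. Depth per library is unknown, so no limit per library can be given.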

Other observations

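Vha44, subunit C of V1, is not among the members because its clusters stand under an older identifier. Of its 25415 reads, 16374 lay at 2 supported ends, 6750 at a proximal end 66 bases after the stop codon and 9624 at the distal one 1158 bases after it. A further 8193 reads lay at an end 872 bases after the stop codon, near no annotated end. All 10 bases after the proximal end were A, and the 8193 reads were followed by 9 A among 10 bases.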
